A study of Mus musculus with 2207 samples.

Results

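Histone genes of the 4 replication-dependent loci Hist1, Hist2, Hist3 and Hist4 were read in single nuclei of the mouse cortex by RamDA-seq, a full-length method that primes total RNA at random positions and so also reads RNA without a poly(A) tail. They were all rows of both expression tables whose symbol started with Hist1h, Hist2h, Hist3h or Hist4h, with 3 pseudogenes left out, which gave 67 of 52636 genes. Of these, 54 lay in Hist1, 10 in Hist2, 2 in Hist3 and 1 in Hist4, and they encoded linker histone H1 (6 genes) and the core histones H2A (18), H2B (18), H3 (12) and H4 (13).

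The series held 2207 nuclei in 6 pools, each from 3 male C57BL/6 mice (of the J substrain in the study's methods) of 14 weeks of age. All mice had been given tamoxifen at 100 mg/kg on 2 occasions, which the labels place at an age of 3 weeks and the methods a week apart. In 96-well plates the pools were WT (Ehmt1+/+) and Ehmt1delta/+, the latter lacking 1 allele of Ehmt1, which encodes the histone methyltransferase GLP. In 384-well plates the labels gave all 4 pools the transgene Ehmt1 iTg: without CamKII-CreER it was carried by Ehmt1+/+ mice (called WT) and by Ehmt1delta/+ mice, and with CamKII-CreER by Ehmt1+/+ mice (called iTg) and by Ehmt1delta/+ mice (called Ehmt1delta/+; iTg). CamKII-CreER is a tamoxifen-dependent recombinase driven in forebrain neurons. The study's text describes these 4 genotypes with CamKII-CreER throughout, and the labels were followed here. The labels named 1664 nuclei as neurons, 397 as oligodendrocytes (46 to 73 per pool) and the others as microglia (16 to 36 per pool). They do not say which mouse a nucleus came from, so pools served as replicates and a p-value measured the spread between pools.

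Replication-dependent histone genes are switched on in S phase, when newly made DNA has to be packed into nucleosomes. Their mRNAs end without a poly(A) tail, at a cut just after a short stem-loop that the protein SLBP binds. Outside S phase some of these genes also give longer, polyadenylated transcripts that run past the stem-loop. Neurons do not divide, and they take most new histones from replacement variant genes, whose mRNAs are polyadenylated.

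A stem-loop with a stem of 6 base pairs and a loop of 4 bases was found in the GENCODE M21 transcript model of 44 of the 67 genes (65.7%). In 22 genes (32.8%) it lay in the last 100 bases, against 2 of 21834 other protein-coding genes (0.00916%). The sequences below, on the coding strand of mm10, are those of the members that the results turn on, with the stem and loop in capitals. They show that genes with unlike levels carried the same element.
Hist1h1c (H1, chr13:23739507-23739532, plus strand): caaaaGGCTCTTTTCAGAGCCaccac
Hist1h1e (H1, chr13:23621777-23621802, minus strand): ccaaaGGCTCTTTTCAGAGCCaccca
Hist3h2a (H2A, chr11:58955167-58955192, plus strand): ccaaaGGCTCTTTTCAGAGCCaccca
Hist1h2ad (H2A, chr13:23574890-23574915, plus strand): acaaaGGCTCTTTTCAGAGCCatcca
Hist3h2ba (H2B, chr11:58949344-58949369, plus strand): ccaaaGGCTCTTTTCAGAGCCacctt
Hist1h3d (H3, chr13:23576239-23576264, plus strand): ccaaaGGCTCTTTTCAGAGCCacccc
Hist1h4d (H4, chr13:23581945-23581970, plus strand): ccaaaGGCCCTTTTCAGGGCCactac
Hist2h4 (H4, chr3:96262934-96262959, minus strand): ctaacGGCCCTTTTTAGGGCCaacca

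The core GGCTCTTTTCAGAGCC was shared by 26 of the 44 genes, from all classes but H4. The form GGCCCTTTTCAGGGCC was found in 7 genes, all of class H4. The model of Hist3h2a ran on for 1643 bases after its stem-loop, that of Hist2h4 for 1257 and that of Hist1h1c for 840, each with a poly(A) signal (AATAAA or ATTAAA) in its last 40 bases. The model of Hist1h2ad ended 42 bases after the stem-loop without such a signal. Over all members the signal was found in 16 of 67 models (23.9%), against 76.2% of other protein-coding genes. No stem-loop was found in the models of Hist1h2bc, Hist1h2bq, Hist2h2be or Hist2h2bb, which says only that these letters were not in the models.

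Promoters of 300 bases were available from RefSeq (GRCm38.p6) for 62 members. The CCAAT box, searched as CCAAT or ATTGG, was in 53 of them (85.5%) and in 37.4% of 32851 promoters of all genes, and the TATA box, searched as TATAAA or TTTATA, was in 35 (56.5%) and in 13.6%. The promoters of Hist1h2ad, which stood lower in neurons than in both glial labels, and of Hist3h2a, which ranked first in neurons, are shown with these letters in capitals. The window of Hist1h2ad starts inside Hist1h2bf, an H2B gene that is read in the other direction, and ends inside Hist1h2ad, so it holds the start of both genes.
Hist1h2ad (chr13:23574131-23574430, plus strand): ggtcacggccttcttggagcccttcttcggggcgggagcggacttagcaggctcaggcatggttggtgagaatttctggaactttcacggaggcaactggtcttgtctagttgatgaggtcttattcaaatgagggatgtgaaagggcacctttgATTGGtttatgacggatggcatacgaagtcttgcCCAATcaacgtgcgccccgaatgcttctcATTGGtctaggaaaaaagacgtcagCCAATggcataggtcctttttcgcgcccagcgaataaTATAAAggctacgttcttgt
Hist3h2a (chr11:58954435-58954734, plus strand): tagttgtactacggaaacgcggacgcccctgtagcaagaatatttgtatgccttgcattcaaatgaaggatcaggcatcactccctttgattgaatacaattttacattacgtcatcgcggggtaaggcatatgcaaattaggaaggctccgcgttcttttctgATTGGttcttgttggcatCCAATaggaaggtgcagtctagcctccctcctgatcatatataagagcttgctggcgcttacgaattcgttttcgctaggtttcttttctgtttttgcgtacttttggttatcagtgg
The Hist1h2ad window held 4 CCAAT boxes and 1 TATA box, and that of Hist3h2a held 2 CCAAT boxes and no TATAAA.

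Levels are given in RPKM, reads scaled to the length of the gene and to all reads of the same nucleus, as the mean over the nuclei of a pool, so a change of the total RNA of a nucleus cannot be seen. The median depth of neurons was 323273 to 397880 reads in every pool, while that of glia was 441701 to 510639 in the 96-well and 39940 to 54877 in the 384-well format. The 5 marker genes of each label stood highest in the nuclei of that label: neuron markers summed to 293.02 RPKM in neurons against 19.1 in microglia and 17.1 in oligodendrocytes, microglia markers to 1773 against 2.88 in neurons and 1.78 in oligodendrocytes, and oligodendrocyte markers to 2981 against 10.03 and 18.4. In the WT pool of the 96-well plates, neuron markers reached 71.3 RPKM in microglia and 59.1 in oligodendrocytes. Histone genes resemble each other, and reads with several matches had been divided: 73.4% of member values above 0 were not whole reads, against 30.9% (96-well) and 26.6% (384-well) of the values of all genes, and 54.5% of the 34689 member reads lay in such values. A level therefore belongs in part to the close copies of a gene, and a value from whole reads alone is given where it matters. Exons were shared with another gene on the same strand in 7 members and on the opposite strand in 21, and the study's methods state default counting, which does not use the strand. Divided reads are not part of default counting, so the options used are in doubt, and reads of a member and of a gene on the opposite strand are taken here as not separable.

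All 67 members were above 0 in some neuron, 65 in some microglial nucleus and 66 in some oligodendrocyte. Most were rare: 12 members were above 0 in at least 20% of neurons, and 11 in each glial label. The median member was above 0 in 9.62% of neurons, 12.3% of microglia and 12.3% of oligodendrocytes. Hist3h2a, an H2A gene, was the most often detected, in 80.6% of neurons (exact 95% interval 78.6 to 82.5, counting error only), 47.9% of microglia (39.6 to 56.4) and 35.01% of oligodendrocytes (30.3 to 39.9). In contrast, Hist1h3d, the H3 gene with the highest mean, was above 0 in 4.57% of neurons and 16.9% of oligodendrocytes.

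These shares followed depth. As read, a neuron held 8.75 ± 1.56 members (mean ± SD of 6 pools). Glia held more than neurons in the 96-well plates (16.2 in microglia and 17.4 in oligodendrocytes, against 9.28) and fewer in the 384-well plates (3.38 and 3.37, against 8.49). Thinned to 20000 reads per nucleus, which left out 3 microglia and 6 oligodendrocytes, neurons held 0.869 ± 0.194 members, microglia 1.73 ± 0.371 and oligodendrocytes 1.56 ± 0.368, and the highest of the 6 neuron pools (1.19) lay at the lowest pool of microglia (1.19) and of oligodendrocytes (1.196). At this depth 47.1% of neurons, 69.8% of microglia and 56.4% of oligodendrocytes held any member, while as read the shares were 98.5%, 89.1% and 77.8%. In these thinned counts a value that was not whole reads was rounded up, so a read divided between copies counted in each of them. Counted so, neurons held fewer histone genes per nucleus than glia on average at like depth. A count with whole reads alone was not made at like depth.

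The summed level of the 67 genes was lower in neurons than in both glial labels in every pool. In neurons it was 35.6 RPKM in WT and 28.6 in Ehmt1delta/+ of the 96-well plates, and 26.2 in WT, 20.03 in Ehmt1delta/+, 24.4 in iTg and 23.9 in Ehmt1delta/+; iTg of the 384-well plates. In the same order it was 90.7, 68.8, 53.8, 59.5, 57.2 and 44.2 in microglia. In oligodendrocytes it was 87.6, 80.5, 40.7, 46.8, 58.2 and 49.3. The neuron pools did not overlap with either glial label, while microglia and oligodendrocytes spanned much the same range. Neurons were 2.23-fold below oligodendrocytes (mean log2 difference -1.16 ± 0.29, SD of 6 pools; -1.40 in 96-well and -1.04 in 384-well plates) and 2.33-fold below microglia (-1.22 ± 0.24). Both were lower in 6 of 6 pools. Microglia were above oligodendrocytes in 3 of 6 pools (mean log2 difference 0.06). From whole reads alone the difference of neurons from oligodendrocytes was -0.83.

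**Figure D1:**
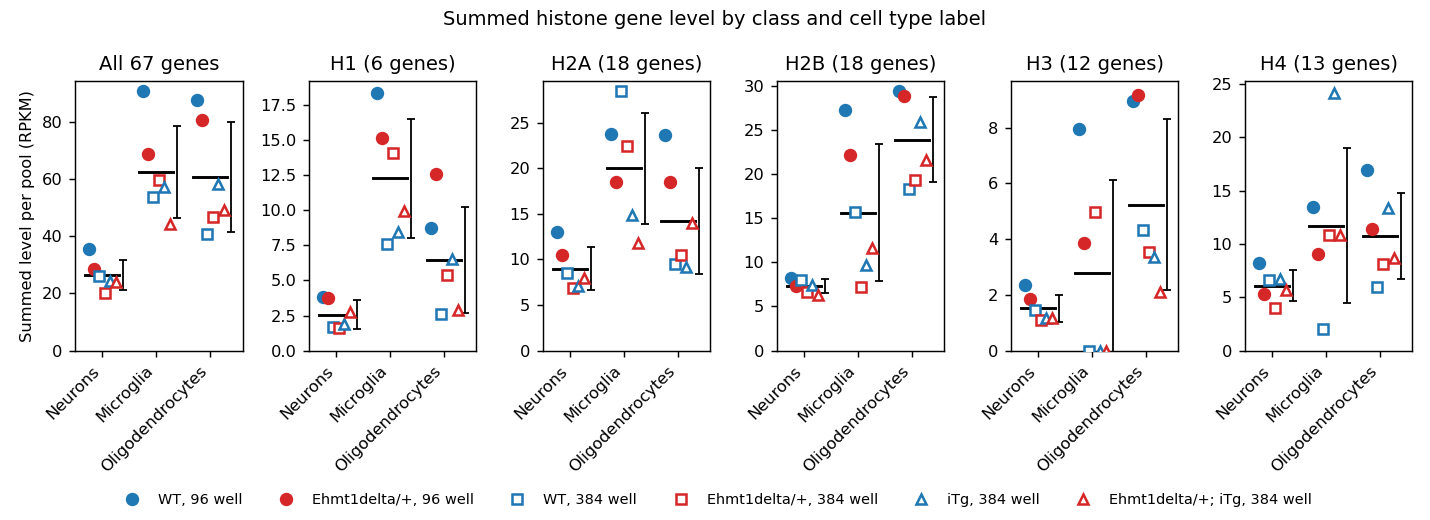
Summed RPKM of all 67 histone genes and of each class (y axis, RPKM, a scale of its own in each panel) by cell type label. Each point is 1 pool, with shape and colour for plate format and genotype, and the bars are the mean and SD of 6 pools. All 6 neuron points of the 67 genes lie between 20.03 and 35.6 RPKM, below every glial point (40.7 to 90.7), and the H3 sum of microglia is 0 in 3 pools.

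In glia much of a pool's sum came from few nuclei. The nucleus with the highest sum gave 1.34 to 2.38% of the sum of its pool in neurons, but 7.33 to 28.9% in microglia and 5.98 to 15.2% in oligodendrocytes. Without that nucleus of each pool and label, an alternative chosen after seeing the data, the mean log2 difference was -1.06 against oligodendrocytes and -1.03 against microglia. In the Ehmt1delta/+ 96-well pool 7 neurons held reads of Pdgfra, a marker of oligodendrocyte precursors, 1 of them at 343.4 RPKM, and the sum of that pool was 28.6 RPKM with and 28.3 without them.

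The locus that made up the sum differed between labels. The Hist1 cluster gave 50.99% of the sum in neurons, 68.1% in microglia and 76% in oligodendrocytes. The 2 genes of Hist3 gave 28.2%, 11.8% and 9.66%. The summed level of Hist3 was 7.45 ± 2.16 RPKM in neurons, 7.38 ± 4.30 in microglia and 5.85 ± 3.22 in oligodendrocytes, and its mean log2 difference of neurons from oligodendrocytes was 0.52, higher in 5 of 6 pools. Hist1 differed in the other direction, with 13.5 ± 1.92, 42.4 ± 11.2 and 46 ± 15.5 RPKM. The single gene of Hist4, Hist4h4, was near 0 throughout, at 0.156, 0.197 and 0.113 RPKM.

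Gene by gene, labels were compared within pools by limma on log2(mean RPKM + 0.1), a scale that understates the difference of low genes, with all 25959 genes above 0 in at least 5% of nuclei on average. The labels were set by the authors on clusters of these same nuclei. Of the 67 members 52 passed this filter, and the other 15, of which 8 are H3 genes, were not tested. Between neurons and oligodendrocytes 18 of 52 members were lower in neurons (34.6%), against 12.6% of all genes tested, and 2 were higher (3.85%), against 36.4%. The median log2 difference was -0.81 over the members and 0.56 over all genes. Between neurons and microglia 10 members were lower in neurons (19.2%), near the 19% of all genes, while 2 were higher, against 42.8%, and the medians were -0.28 and 0.78. Between microglia and oligodendrocytes 3 members were higher in microglia (5.77%), against 21.2%, and 8 lower (15.4%), against 21.3%. From whole reads alone 6 of 52 members were higher and 5 lower in neurons than in oligodendrocytes, against 7912 and 2725 of 23556 genes. Compared with microglia 5 were higher and 4 lower, against 9741 and 3806 of 23556 genes. The lean toward lower calls thus did not hold among the members with whole reads alone. Their median log2 differences, 0.015 and 0.10, still lay below the 0.51 and 0.79 of all genes. Of the 18 members lower than in oligodendrocytes, 5 kept their call with whole reads, 8 kept only their direction and 5 turned in direction (Hist1h2ah, Hist1h2bk, Hist1h2bl, Hist2h2aa1 and Hist2h2aa2). Of the 10 lower than in microglia, 3 kept their call, 3 only their direction and 4 turned. With only the 384-well pools 7 of 42 members were lower than in oligodendrocytes and 2 higher, against 2454 and 7492 of 23609 genes. In that fit 11 of the 20 calls were lost, Hist1h1c, Hist1h2ad, Hist1h2bf and Hist1h3d among them, the last because it was not tested there. With only the 96-well pools 36 of 62 were lower than in oligodendrocytes and none was higher, against 3242 and 8012 of 28142 genes. Compared with microglia 23 of 62 were lower and 1 higher, against 6091 and 8366 of 28142 genes. Without the Ehmt1delta/+ pool of the 96-well plates 13 of 51 members were called against oligodendrocytes and 7 against microglia. Of all 25236 genes tested there, 11383 and 14811 were called. Called under every alternative were Hist1h2bc, Hist1h2bq and Hist1h2br between neurons and oligodendrocytes, Hist1h1c, Hist1h1e and Hist3h2ba between neurons and microglia, and Hist1h2bq, Hist1h2br and Hist3h2ba between both glial labels.

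**Figure D2:**
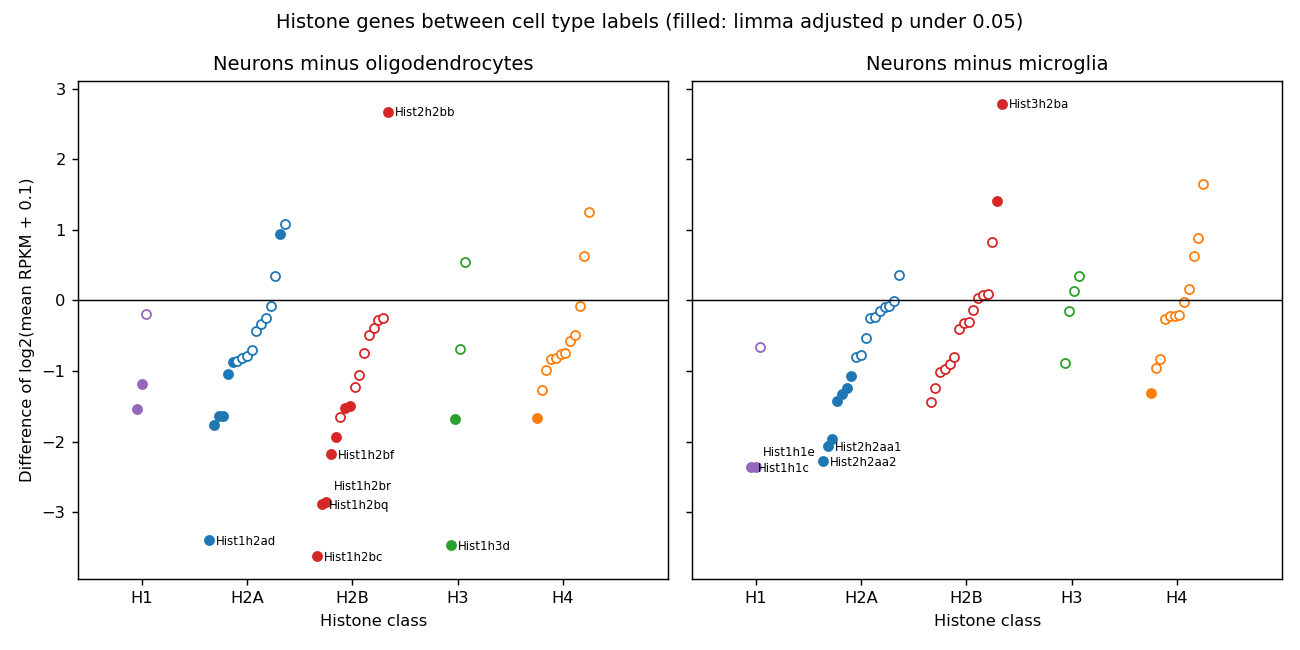
Difference of log2(mean RPKM + 0.1) between cell type labels (y axis) for the 52 histone genes tested, by class (x axis), with 1 panel for each comparison. Each point is 1 gene, and filled points had an adjusted p under 0.05 by limma. In neurons minus oligodendrocytes 18 filled points lie below 0, down to Hist1h2bc at -3.62, and 2 above, Hist2h2bb at 2.68 and Hist3h2a at 0.94.

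Linker histone genes had the highest share of the sum in microglia. H1 binds the DNA between nucleosomes and compacts the fibre. The class summed to 12.3 ± 4.25 RPKM in microglia, 6.45 ± 3.76 in oligodendrocytes and 2.57 ± 1.01 in neurons, with microglia above oligodendrocytes in 6 of 6 pools (mean log2 difference 1.07) and neurons below microglia in 6 of 6 (-2.28). Hist1h1c, which encodes H1.2, was at 14.9, 11.9, 4.38, 4.89, 2.53 and 7.94 RPKM in microglia (pools in the order above). It was at 2.78, 2.84, 0.732, 0.509, 0.596 and 1.41 in neurons and at 6.28, 9.04, 1.78, 1.88, 2.37 and 1.039 in oligodendrocytes. Every microglial pool stood above the neuron pool of the same mice, and the 96-well pools stood above the 384-well pools in all 3 labels. The log2 difference of neurons from microglia was -2.37 ± 0.31 (SE, limma adjusted p = 2.39e-05), that of neurons from oligodendrocytes -1.18 ± 0.31 (adjusted p = 0.00680, but -0.50 and 0.32 with whole reads alone), and that of microglia from oligodendrocytes 1.19 ± 0.31 (adjusted p = 0.00785).

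Hist1h1e, which encodes H1.4, was steady in neurons at 0.547 ± 0.0688 RPKM (0.470 to 0.649) and ranged from 2.02 to 5.68 in microglia, with no overlap. In oligodendrocytes it was at 0.688 to 3.15. Its log2 difference of neurons from microglia was -2.36 ± 0.31 (limma adjusted p = 2.47e-05). It shares 816 exonic bases with other genes on its strand, Hist1h2be among them, and 55.2% of its reads lay in values that were not whole reads. From whole reads its means were 0.266 RPKM in neurons, 2.41 in microglia and 1.06 in oligodendrocytes, the same order. The call between both glial labels (0.82, adjusted p = 0.0498) was lost in the 96-well pools, where the difference was -0.16.

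Among H2A genes, which form the outer part of the nucleosome with H2B, Hist3h2a stood apart from the rest. It was at 9.93, 8.64, 4.18, 3.81, 3.66 and 5.57 RPKM in neurons and gave 15 to 30.2% of their histone sum. In microglia it was at 14.8, 8.87, 3.53, 7.38, 3.33 and 4.62, and in oligodendrocytes at 9.16, 6.62, 1.201, 2.22, 0.807 and 3.54. Neurons stood above oligodendrocytes in every pool, by a log2 difference of 0.94 ± 0.28 (limma adjusted p = 0.0124), and microglia did by 1.09 ± 0.28 (adjusted p = 0.00611). The call against oligodendrocytes was lost without the WT pool or without the iTg pool of the 384-well plates, and with only the 96-well pools, where the difference was 0.25. Hist3h2a shares 708 exonic bases with Trim17 on its strand, and 75.4% of its reads lay in values that were not whole reads. A read divided in 2 was also seen in Trim17 in 79.8% of the nuclei with such a read in Hist3h2a, against 8.53% of 1875 others. Trim17 was at 5.88 ± 0.759 RPKM in neurons, 4.61 ± 2.89 in microglia and 3.50 ± 1.21 in oligodendrocytes. From whole reads Hist3h2a was at 1.65 RPKM in neurons, 3.23 in microglia and 0.892 in oligodendrocytes, and the order of the labels stayed the same.

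Hist1h2ad went the other way. It was at 0.0650 to 0.155 RPKM in all neuron pools, while the oligodendrocyte pools were at 5.86 and 6.20 in 96-well and at 0.225, 0.730, 2.07 and 3.41 in 384-well plates. All oligodendrocyte pools thus stood above all neuron pools, and the log2 difference was -3.39 ± 0.75 (limma adjusted p = 0.00213). From whole reads it was at 0.0183 RPKM in neurons and 1.09 in oligodendrocytes. In microglia Hist1h2ad was at 0.933 ± 0.606 RPKM (log2 difference of neurons -1.96, adjusted p = 0.0378), and this call did not hold without several single pools. Hist2h2aa1 and Hist2h2aa2 are near-identical copies: every stretch of 76 bases of Hist2h2aa2 recurred in another histone gene, and 94.7% of its reads lay in values that were not whole reads. Hist2h2aa2 was at 0.483 RPKM in neurons, 3.08 in microglia and 2.05 in oligodendrocytes, lower in neurons by 2.28 and 1.77 on the log2 scale (limma adjusted p = 8.15e-05 and 0.000841), but from whole reads it was at 0.0351, 0.496 and 0.0159. With whole reads neurons thus stood above oligodendrocytes (log2 difference 0.14, adjusted p = 0.90), both calls were lost, and which copy was read is uncertain. In all, 7 H2A genes were lower in neurons than in microglia, namely both these copies, Hist1h2ab, Hist1h2ad, Hist1h2ah, Hist1h2ao and Hist1h2ap, and 6 were lower than in oligodendrocytes. For Hist1h2ab, Hist1h2ah, Hist1h2ao and Hist1h2ap the differences of -1.23, -1.42, -1.07 and -1.32 from microglia went to 0.0030, 0.05, 0.10 and 0.10 with whole reads alone.

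H2B genes were highest in oligodendrocytes. The class summed to 23.9 ± 4.80 RPKM there, 15.6 ± 7.75 in microglia and 7.30 ± 0.762 in neurons, with neurons below oligodendrocytes in 6 of 6 pools (mean log2 difference -1.69) and microglia below oligodendrocytes in 6 of 6 (-0.74). Hist1h2bc led, at 4.47, 5.69, 1.90, 4.75, 11.7 and 5.35 RPKM in oligodendrocytes. In neurons it was at 0.228 to 0.392, and in microglia at 3.68 and 2.11 in 96-well plates and at 0.361, 1.49, 0 and 0.229 in 384-well plates. Each oligodendrocyte pool stood above the other labels of the same pool, by a log2 difference of -3.62 ± 0.69 for neurons (limma adjusted p = 0.000723) and -2.72 ± 0.69 for microglia (adjusted p = 0.00652). From whole reads the means were 3.21 RPKM in oligodendrocytes, 0.615 in microglia and 0.190 in neurons.

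Hist1h2bq and Hist1h2br behaved alike, and cannot be taken as separate genes, since 96.0% and 87.5% of their stretches of 76 bases recur in another histone gene. Hist1h2bq was at 2.88, 2.99, 1.86, 2.10, 2.22 and 1.23 RPKM in oligodendrocytes, against 0.135 to 0.318 in neurons and 0 to 0.733 in microglia. Oligodendrocytes did not overlap with either label, and the differences were -2.89 ± 0.37 for neurons (limma adjusted p = 2.56e-05) and -2.92 ± 0.37 for microglia (adjusted p = 2.84e-05). Hist1h2br had -2.85 ± 0.41 and -2.93 ± 0.41. Hist1h2bf, whose start lies in the promoter window of Hist1h2ad shown above, was at 1.96, 2.22, 0.268, 3.37, 0.967 and 1.27 RPKM in oligodendrocytes and at 0.104 to 0.319 in neurons, with a difference of -2.17 ± 0.67 (adjusted p = 0.0170). Its WT pool of the 384-well plates overlapped with neurons. Of its reads 86.1% lay in values that were not whole reads, and with whole reads alone the difference was -0.50 (limma adjusted p = 0.35).

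Other H2B genes departed from this order. Hist3h2ba, at 0.621 to 2.40 RPKM in neurons and 0.904 to 2.95 in oligodendrocytes, was at 0.281, 0.0490, 1.36, 0, 0 and 0 in microglia. As read, it was above 0 in 3.42% of microglia (exact 95% interval 1.12 to 7.81), 20.97% of neurons and 10.8% of oligodendrocytes. Thinned to 20000 reads the shares were 0.722 ± 1.52%, 1.90 ± 0.843% and 2.40 ± 0.845% (mean ± SD of 6 pools), so the order of neurons and oligodendrocytes turned, by less than the spread of the pools. In the 3 microglial pools at 0 it was listed at 0 in 19, 20 and 23 nuclei, which by the limit of 3 nuclei allows a share with reads at this depth of up to 15.8%, 15% and 13.04%. Neurons were above microglia by 2.79 ± 0.49 (limma adjusted p = 0.000306), and microglia below oligodendrocytes by -3.18 ± 0.49 (adjusted p = 0.000170). Hist2h2bb was at 1.63, 1.23, 1.02, 0.967, 0.838 and 0.739 RPKM in neurons, and in oligodendrocytes at 0.595 and 0.356 in 96-well plates and at 0 in all 4 pools of the 384-well plates. The neuron pools did not overlap with oligodendrocytes (2.68 ± 0.55, adjusted p = 0.00127), and the difference from microglia was 1.41 (adjusted p = 0.0406). However, 80.98% of its reads lay in values that were not whole reads, it shares exonic bases with another gene on its strand, and the call was lost with whole reads alone and in the 96-well pools. Hist1h2be and Hist1h2bg were highest in microglia, at 3.10 ± 2.63 and 3.39 ± 3.11 RPKM against 0.972 ± 0.360 and 0.672 ± 0.149 in neurons, and Hist2h2be, which shared no stretch of 76 bases with another member, was at 2.00 ± 1.54 against 0.870 ± 0.534. None of these 3 passed the test, and their microglial pools overlapped with neurons.

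**Figure D3:**
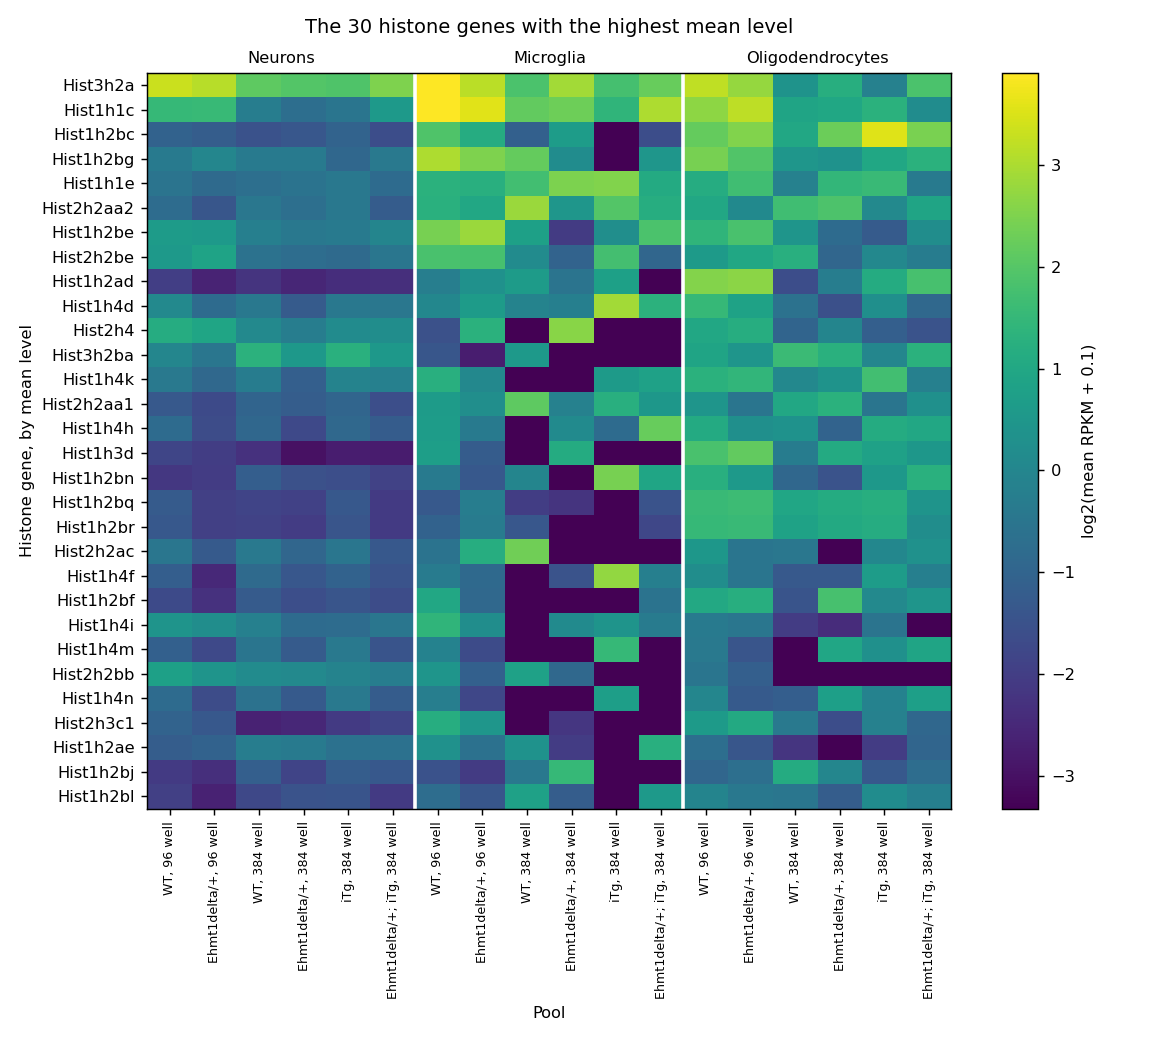
Level of the 30 histone genes with the highest mean (rows) in each pool (columns), grouped by cell type label, with colour for log2(mean RPKM + 0.1) and the darkest colour for 0 RPKM. Hist3h2a is bright in every neuron column (3.66 to 9.93 RPKM), Hist1h2bc and Hist1h2bq in every oligodendrocyte column, and dark cells are most frequent in microglia of the 384-well plates, which had 16 to 23 nuclei per pool.

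H3 genes were the lowest class. H3 and H4 make up the core of the nucleosome, and H3 carries the lysine that GLP methylates. The class summed to 1.51 ± 0.492 RPKM in neurons and 5.24 ± 3.06 in oligodendrocytes, lower in neurons in 6 of 6 pools, and to 7.95, 3.88 and 4.96 in the microglia of WT and Ehmt1delta/+ in 96-well and Ehmt1delta/+ in 384-well plates. The other 3 microglial pools were listed at 0 for all 12 H3 genes, in 16, 20 and 23 nuclei, which by the same limit allows a share of nuclei with H3 reads at this depth of up to 18.8%, 15% and 13.04%. Hist1h3d was at 3.48, 4.39, 0.722, 2.05, 1.67 and 1.32 RPKM in oligodendrocytes and at 0.0262 to 0.183 in neurons. The groups did not overlap, and the difference was -3.47 ± 0.61 (limma adjusted p = 0.000371). Hist2h3c1 was also lower in neurons than in oligodendrocytes (-1.67, adjusted p = 0.0152), but with whole reads alone the difference was -0.52 (limma adjusted p = 0.27). It shares all its 1825 exonic bases with another gene on its strand, and 62.9% of its reads lay in values that were not whole reads. Of the H3 genes 8 were among those not tested.

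H4 genes separated neurons from glia in most pools but not in all. They summed to 6.07 ± 1.45 RPKM in neurons, 11.7 ± 7.23 in microglia and 10.7 ± 4.004 in oligodendrocytes, and neurons stood above microglia in the WT pool of the 384-well plates (6.61 against 2.00) and below in the other 5. Neurons were below oligodendrocytes in 5 of 6 pools (mean log2 difference -0.77) and above them in that same WT pool (6.61 against 5.98). Hist2h4, whose reads were nearly all whole, was at 2.11, 1.80, 0.950, 0.742, 1.01 and 1.07 RPKM in neurons, and at 0.244, 2.35, 0, 5.997, 0 and 0 in microglia. As read, it was above 0 in 28.2% of neurons and 6.16% of microglia, but thinned to 20000 reads the shares were 3.84 ± 1.58% and 2.70 ± 4.37%, a difference within the spread of the pools. Hist1h4d was at 0.612 ± 0.214 RPKM in neurons and 2.30 ± 2.57 in microglia, where the iTg pool alone was at 7.38, and its call against microglia (-1.32, limma adjusted p = 0.0310) was lost when any of 4 pools was left out. Hist1h4h was lower in neurons than in oligodendrocytes (-1.67, adjusted p = 0.0388), and Hist1h4n was lower in microglia than in oligodendrocytes (-1.69, adjusted p = 0.0440). Both calls were lost with whole reads alone (-1.13 and -1.14, limma adjusted p = 0.11 and 0.067), with only the 384-well pools and without several single pools. Hist1h4i was at 0.777 ± 0.315 RPKM in neurons, 1.09 ± 0.828 in microglia and 0.355 ± 0.309 in oligodendrocytes and passed no test.

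The level also went with how the gene model ends. The 11 genes whose model runs over 100 bases past the stem-loop and ends with a poly(A) signal, among them Hist3h2a, Hist1h1c, Hist3h2ba and Hist2h4, had a median level of 0.777 RPKM in neurons, 0.881 in microglia and 0.928 in oligodendrocytes. They gave 49.3% of the summed level in neurons, 36.5% in microglia and 23.8% in oligodendrocytes. The 22 genes whose model ends within 100 bases of the stem-loop had medians of 0.199, 0.480 and 0.675 RPKM and gave 18.3%, 25.2% and 28.5%. Without a poly(A) signal, the 11 other models that run past the stem-loop were at 0.153, 0.417 and 0.537, and the 23 without a stem-loop at 0.177, 0.429 and 0.290. Of the genes tested against oligodendrocytes, 7 of 18 that end at the stem-loop were lower in neurons and none was higher, while 2 of 9 that run past it with a poly(A) signal were lower and 1 was higher, against 12.6% lower and 36.4% higher of all genes. Of the 9 tested that run past it without such a signal 2 were lower and none was higher. Of the 16 tested without a stem-loop in the model 7 were lower and 1 was higher. These counts differ by few genes, and the difference between the groups was not tested. Of the lower genes that end at the stem-loop, only Hist1h2ad kept its call with whole reads alone (-2.80, limma adjusted p = 0.0042). There, Hist1h2bk, Hist2h2aa1 and Hist2h2aa2 turned in direction, and Hist1h2ao, Hist1h2bf and Hist1h4h lost their call. Hist1h1c and Hist2h3c1, the lower genes with a poly(A) signal, also lost theirs, while Hist3h2a stayed higher (0.82, limma adjusted p = 0.047). The median share of 76-base stretches found in another histone gene was 13.5% in the genes with the longer, polyadenylated model and 55.7% in those that end at the stem-loop, so shared reads moved with the end of the model, and their part in the result was not tested.

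**Figure D4:**
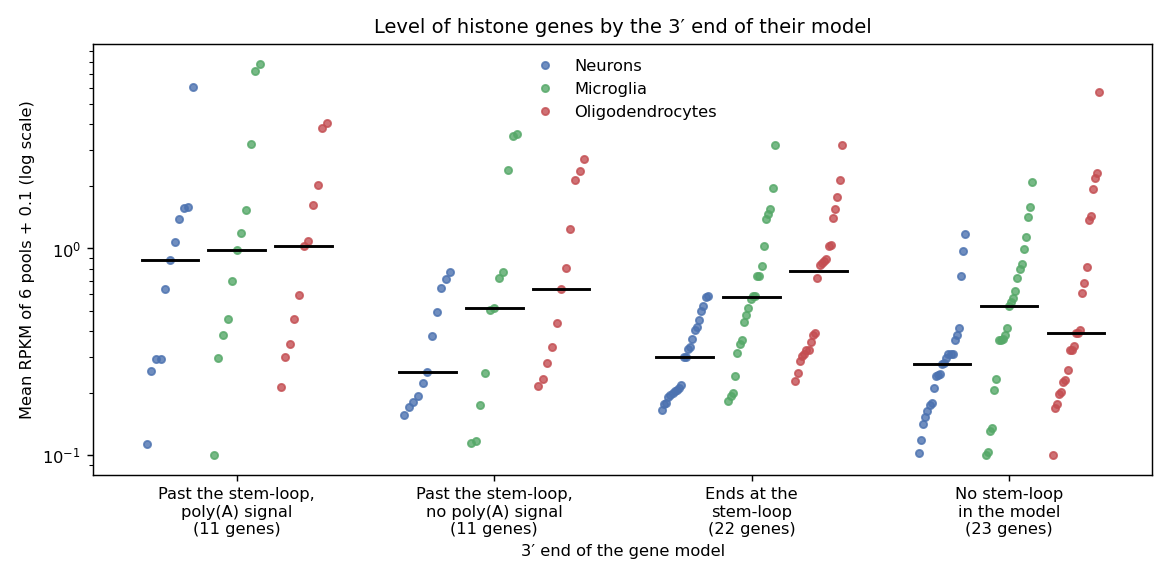
Level of each of the 67 histone genes (y axis, mean RPKM of 6 pools + 0.1, log scale) by the 3′ end of its gene model (x axis) and cell type label (colour). Each point is 1 gene and the bars are medians. The levels include reads divided between genes. Among genes that run past the stem-loop to a poly(A) signal the medians of the labels lie close together (0.777, 0.881 and 0.928 RPKM before 0.1 was added), while among genes that end at the stem-loop neurons lie lowest (0.199 against 0.480 and 0.675).

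The summed level of the machinery of histone mRNA 3′ ends overlapped between labels. Its 13 genes summed to 131.7 ± 18.3 RPKM in neurons, 126.8 ± 28.02 in microglia and 120.6 ± 12.8 in oligodendrocytes, led by Srrt, a cap-binding partner (39.1, 46.2 and 38.1), Sympk, a scaffold of the cleavage complex (27.9, 21.3 and 33.2), and Cstf2, a cleavage factor (31.2, 1.83 and 4.65). Of the 13, against oligodendrocytes 4 were higher in neurons (Slbp, Cstf2, Lsm11 and Zfp473) and 2 lower (Npat and Casp8ap2), shares close to the 36.4% and 12.6% of all genes. Against microglia 4 were higher (Sympk, Cstf2, Npat and Zfp473) and 4 lower (Slbp, Casp8ap2, Lsm10 and Cpsf3), where all genes gave 42.8% and 19%. Between both glial labels 4 were higher in microglia (Slbp, Lsm11, Lsm10 and Cpsf3) and 2 lower (Npat and Sympk), where all genes gave 21.2% and 21.3%. Slbp, which binds the stem-loop, was highest in microglia at 4.18 RPKM, against 1.63 in neurons and 0.837 in oligodendrocytes (log2 difference of microglia from oligodendrocytes 2.26, limma adjusted p = 0.000103). Npat, the activator of histone transcription, was highest in oligodendrocytes at 18.1 RPKM, against 7.13 in neurons and 2.96 in microglia (-2.76 for microglia from oligodendrocytes, adjusted p = 2.75e-06).

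Replacement histone variants, which are made outside S phase, summed to 46.7 ± 4.87 RPKM in neurons, 69.9 ± 12.7 in microglia and 55.4 ± 9.11 in oligodendrocytes. In neurons these 11 genes thus summed to more RPKM than the 67 replication-dependent genes (26.5 ± 5.29). On average the same held in microglia (69.9 against 62.4), but not in oligodendrocytes (55.4 against 60.5). The pool ranges of both sums overlapped in each glial label and did not overlap in neurons. The highest means were those of H2afy, which encodes macroH2A1 (14.97, 28.8 and 19.8 RPKM), H2afj (6.62, 8.97 and 13.7) and H2afz (8.83, 6.21 and 6.08). Against oligodendrocytes 2 of 11 were higher in neurons (H2afy2 at a log2 difference of 1.77 and the linker variant H1fx at 2.61) and 2 lower (H2afy at -0.39 and the linker variant H1f0 at -1.59), where 36.4% of all genes were higher and 12.6% lower. Against microglia the same 2 were higher (2.58 and 2.78), and 4 were lower (H2afy at -0.92, H2afv at -1.26, H3f3a at -0.79 and H1f0 at -2.08). Between both glial labels H2afy (0.53) and H3f3b (1.24) were higher in microglia and none was lower, where all genes gave 21.2% and 21.3%. Hist1h1c and Hist1h1e, the linker genes above, were likewise lower on average in neurons than in both glial labels. With whole reads alone both calls against oligodendrocytes were lost (-0.50 and -1.39, limma adjusted p = 0.32 and 0.11).

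Markers of the cell cycle were summed in the same way. Their 16 genes summed to 21.8 ± 1.66 RPKM in neurons, 32.1 ± 11.5 in microglia and 20.2 ± 2.36 in oligodendrocytes. The pools of neurons (19.3 to 24.1) and oligodendrocytes (17.7 to 23.8) overlapped. Whether the histone sum goes with cycling was not tested. Of 13 tested, 4 were higher in neurons than in oligodendrocytes (Ccne1, Tyms, E2f1 and Mki67) and 2 lower (Mcm3 and Mcm6), again close to the 36.4% and 12.6% of all genes. Against microglia 3 were higher (Ccne1, E2f1 and Ccna2) and 3 lower (Tyms, Mcm3 and Mcm6), where all genes gave 42.8% and 19%. Between both glial labels Tyms and Mcm3 were higher in microglia and Gins2 lower, where all genes gave 21.2% and 21.3%. In the microglia of the Ehmt1delta/+ pool of the 384-well plates, the cycling genes reached 54.5 RPKM, against 24.9 to 33.7 in the other pools. There, 1 nucleus with Cx3cr1, a microglial receptor, at 183.6 RPKM had Mki67 at 115.6 RPKM and Top2a at 63.2, 13 of the 16 cycling genes above 0, and 41 histone genes with a summed level of 314.6 RPKM. It gave 27.8% of the histone sum of its pool, which was 59.5 RPKM with it and 45.4 without it. A nucleus with a like sum, 330.2 RPKM, in the microglia of the iTg pool held 14 histone genes and 1 cycling gene.

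The Ehmt1delta/+ label was examined next. Ehmt1 itself was higher, not lower, in pools with this label. In neurons it was at 18.7 RPKM in WT and 31.2 in Ehmt1delta/+ of the 96-well plates, at 19.5 and 31.7 in the 384-well plates without CamKII-CreER, and at 20.7 and 33.9 with it. In microglia the same pairs were 16.8 and 25.1, 15.7 and 20.8, and 23.8 and 26.4. In oligodendrocytes they were 17.5 and 25.8, 21.8 and 32.6, and 20.9 and 28.3. The gene total goes against the label in all 9 pairs, so every direction below is that of the pool labelled Ehmt1delta/+. A value for the whole gene does not read the deleted part alone. In the 384-well plates WT was on a plate code of its own and the other 3 pools shared 1 code, so plate code and genotype cannot be told apart between WT and Ehmt1delta/+ without CamKII-CreER, while the pair with CamKII-CreER was on the same code. In the 96-well plates 74.9% of WT and 75% of Ehmt1delta/+ nuclei were on 3 shared codes.

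No member differed by the Ehmt1delta/+ label at an adjusted p under 0.05 in limma with the plate format as a block (4 pools, 1 residual degree of freedom), as did none of all genes (0.00% of 28171 in neurons, 0.00% of 21254 in microglia and 0.00% of 20258 in oligodendrocytes). The smallest adjusted p of a member was 0.54 in neurons, 0.93 in microglia and 0.91 in oligodendrocytes. At an unadjusted p under 0.05, 20 of 54 members were lower in neurons of the pools labelled Ehmt1delta/+ (37.04%, against 5.97% of all genes) and none was higher. In oligodendrocytes 2 of 60 were lower (3.33%, against 2.04%) and none was higher, and in microglia 2 of 54 were higher (against 0.809%) and none was lower. With whole reads alone the count lower in neurons was 6 of 54, where 1812 of 25682 genes passed in either direction. With a pseudocount of 1 it was 8 of 54, where 2621 of 28171 genes did.

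In neurons 44 of 54 members were lower in the pools labelled Ehmt1delta/+ (81.5%, against 57.3% of all genes), and 38 were lower in both plate formats (70.4%, against 33.9%). In all 3 pairs of pools, the pair with CamKII-CreER included, 27 were lower (50%, against 13.3%). The median log2 ratio was -0.39 over the members and -0.03 over all genes, but -0.05 over the members with whole reads alone, where 18 of 54 were higher, and -0.09 with a pseudocount of 1. H4 genes leaned most: 13 of 13 were lower in both plate formats and 10 at an unadjusted p under 0.05, with a median of -0.65. In the pair with CamKII-CreER, on 1 plate code, 9 of the 13 were lower, with a median of -0.26. H4 genes share reads, so they are not independent of each other. In H2A 13 of 16 were lower in both formats, in H2B 8 of 15, in H3 4 of 7 and in H1 0 of 3. The summed H4 level of neurons was 8.19 and 5.27 RPKM in WT and Ehmt1delta/+ of the 96-well plates, 6.61 and 3.96 in those of 384 wells without CamKII-CreER and 6.73 and 5.69 with it. Its log2 ratio was -0.64, -0.74 and -0.24, lower in 3 of 3 pairs, and with 3 pairs no permutation test can reach 0.05. Summed over all 67 genes the neuron ratios were -0.31, -0.39 and -0.03.

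The 3 members that moved most in both formats in neurons were all H4 genes. Hist1h4h was at 0.481 and 0.219 RPKM in WT and Ehmt1delta/+ of the 96-well plates, 0.431 and 0.201 in those of 384 wells without CamKII-CreER, and 0.446 and 0.326 with it. Hist1h4d was at 0.965 and 0.474, 0.638 and 0.325, and 0.645 and 0.622. Hist1h4n was at 0.478 and 0.220, 0.556 and 0.316, and 0.657 and 0.328. Over both formats without CamKII-CreER the log2 ratios were -0.84 ± 0.11, -0.84 ± 0.11 and -0.76 ± 0.12 (limma adjusted p = 0.54 for each). The genes were picked by these same ratios, so their agreement there followed from the choice. Only the pairs with CamKII-CreER had no part in it, and their log2 ratios were -0.36, -0.05 and -0.82. With whole reads alone the ratio of Hist1h4n was 0.04.

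In glia the named members were set by few nuclei. In microglia Hist2h4 was higher in the pools labelled Ehmt1delta/+ (0.244 and 2.35 RPKM, 0 and 5.997), as was Hist1h3c (log2 ratios 1.70 and 3.19), and Hist2h2ab was lower (-2.02 and -5.23). All 3 were listed at 0 in both pools with CamKII-CreER. In oligodendrocytes Hist1h4j (-1.81, -1.72 and, with CamKII-CreER, -0.96) and Hist1h3h (-1.33, -2.05 and -1.15) were lower in all 3 pairs, while Hist2h2ac was lower in the first 2 (-1.02 and -2.86) and higher with CamKII-CreER (0.33). The summed ratio over all members was -0.40, 0.15 and -0.37 in microglia and -0.12, 0.20 and -0.24 in oligodendrocytes, without 1 direction.

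**Figure D5:**
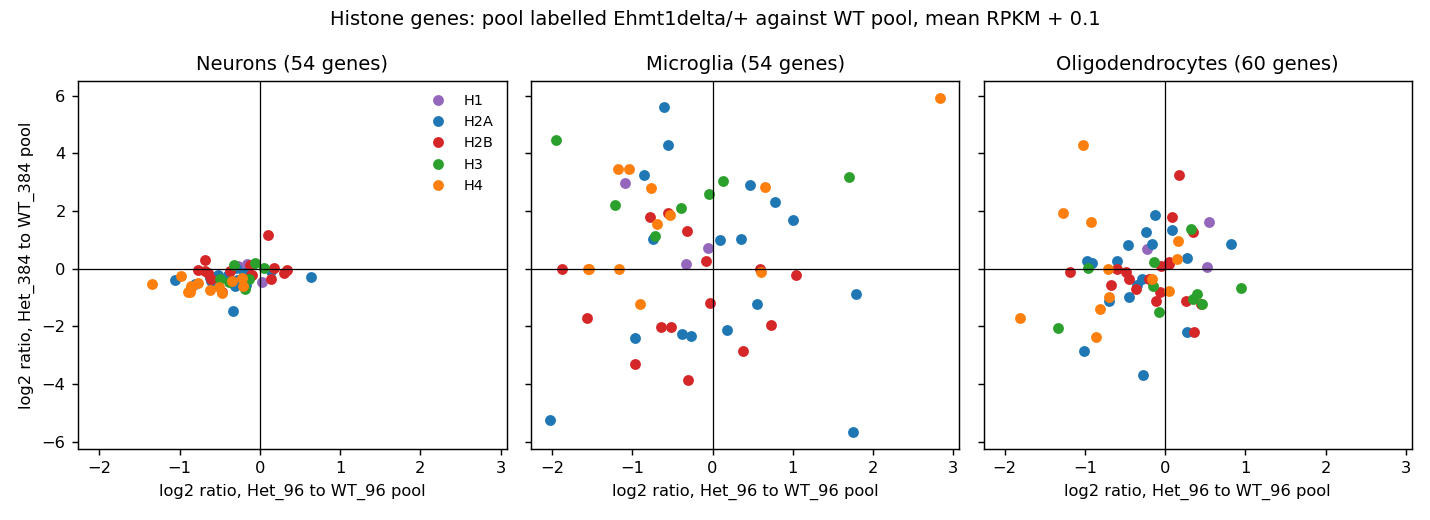
Log2 ratio of the pool labelled Ehmt1delta/+ to the WT pool (mean RPKM + 0.1) in the 96-well (x axis) and in the 384-well format without CamKII-CreER (y axis), for the histone genes tested in each cell type label. Each point is 1 gene, coloured by class. In neurons 38 of 54 points lie below 0 in both formats, with all 13 H4 genes, while in microglia and oligodendrocytes the points scatter over all combinations of signs.

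The transgene with CamKII-CreER was present in 1 pool of each Ehmt1 label, so it has no replicate. In neurons, where CamKII-CreER acts, the summed histone level was 26.2 RPKM in WT and 24.4 in iTg, and 20.03 in Ehmt1delta/+ and 23.9 in Ehmt1delta/+; iTg. In oligodendrocytes the 4 pools were at 40.7, 58.2, 46.8 and 49.3 RPKM in this order, and in microglia at 53.8, 57.2, 59.5 and 44.2.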

How the data were processed

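After adapter trimming, the authors aligned reads to mm10 by HISAT2 (2.0.4 in the submitters' processing notes), counted genes by featureCounts (Subread 1.5.0 in the same notes) on a GENCODE annotation, and for nuclei that passed quality filters deposited RPKM of 52636 genes, separately for 96-well and 384-well plates. Default counting was stated, but the values were multiples of 0.01 reads, with reads divided between genes.

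Pools and cell types came from the sample labels. Read totals followed from the size of these multiples, and nuclei were thinned to 20000 reads for detection, with values that were not whole reads rounded up. Mean RPKM per pool and label was tested by limma 3.58.1 in R 4.3.3 on log2(RPKM + 0.1), over all genes above 0 in at least 5% of nuclei on average, with Benjamini-Hochberg adjustment at 0.05. The block was the pool between cell types (10 residual degrees of freedom) and the plate format for the Ehmt1delta/+ label. Nuclei of a pool share their mice, so pools were the unit of every test. SciPy 1.17.1, pandas 2.3.3 and numpy 2.4.6 in Python 3.11.15 served for the other steps, which were tested on simulated data. Intervals are exact Clopper-Pearson at 95%, the limit where no nucleus held reads is 3 nuclei of those read, and both cover counting error only.

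The members, the gene lists and the cell type markers were picked with earlier results of these data known. A sign-flip permutation test of the summed level was set but is not reported for that reason. Named were the 8 members with the highest mean per label, the highest of each class, those called (over 12, the 6 with the largest difference in each direction) and the 3 per label with the largest ratio of the same sign in both plate formats. The analysis in each plate format alone, without the highest nucleus and without Pdgfra-positive neurons were chosen after seeing the data. Stem-loops were searched in GENCODE M21 transcripts, and 0 pairs of nuclei held identical values.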

Additional observations from a re-analysis of the deposited data

Results flagged for a closer look

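Hist1h2bf had opposite signs by the Ehmt1delta/+ label in neurons and oligodendrocytes. In neurons its log2 ratio was lower in all 3 pairs of pools (-0.60, -0.34 and -0.24, mean -0.40), and in oligodendrocytes it was higher in all 3 (0.17, 3.24 and 0.36, mean 1.26). Of its reads 86.1% lay in values that were not whole reads, and the difference between the labels was not tested.

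The 3 pseudogenes left out held reads. Hist1h2aj was above 0 in 8.16% of all nuclei, Hist1h2al in 16.5% and Hist3h2bb-ps in 11.1%.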

How the results depend on the processing

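No paired analysis was possible by replicate number, because the labels give none. Pairing came from the pools alone: the pool was the block between cell type labels, and by the Ehmt1delta/+ label a fit of 3 pairs of pools called 0 members. At an unadjusted p under 0.05, 17 of 51 were lower and 1 higher in neurons in that fit, where 1516 of 27783 genes passed in either direction. Counts of members called that moved by over 1.5 times, against 20 between neurons and oligodendrocytes, were 9 with only the 384-well pools, 36 with only the 96-well pools, 11 with whole reads alone and 13 with a pseudocount of 0.01. Against 12 between neurons and microglia the count was 24 with only the 96-well pools, and against 11 between both glial labels it was 7 with whole reads alone. Leaving out each pool in turn gave 13 to 22, 7 to 14 and 10 to 16, with 13 and 7 without the Ehmt1delta/+ pool of the 96-well plates, and 12, 7 and 7 members were called in every such fit. No member was called by the Ehmt1delta/+ label under any alternative.

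With whole reads alone the sign turned between neurons and microglia for Hist1h2ah (0.050), Hist1h2ap (0.10), Hist1h2ab (0.0030) and Hist1h2ao (0.10), and by the Ehmt1delta/+ label in neurons for Hist1h4n (0.036). Between both glial labels Hist1h1e turned to -0.018 with nuclei of at least 20000 reads and to -0.16 in the 96-well pools. The summed level of neurons against oligodendrocytes was -0.83 with whole reads, and -1.26 to -1.09 when each pool was left out, against microglia -1.29 to -1.15. By the Ehmt1delta/+ label, the sum of microglia with CamKII-CreER was -1.11 with whole reads, and that of oligodendrocytes without CamKII-CreER was 0.61 with reads summed over nuclei. The causes were not tested. Members per nucleus in neurons, microglia and oligodendrocytes were 0.456, 0.996 and 0.858 when thinned to 10000 reads, 8.75, 7.64 and 8.04 as read, and 3.61, 3.02 and 2.77 with at least 1 whole read. Over all single genes and alternatives, 91 further values kept their direction and lost their call, and 487 kept both.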
